A study of Homo sapiens with 6 samples.

Results

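Aminoacyl-tRNA synthetases are the enzymes that join each amino acid to its transfer RNA. The 38 transcripts described here were picked by gene symbol, with no value of these data in the rule, although earlier results of these data were known when the set was chosen: 20 cytosolic synthetases, 16 mitochondrial synthetases whose symbols end in 2, and the scaffold proteins AIMP1 and AIMP2. They are 38 of the 56305 genes counted, and all 38 passed the filter on low counts, as did 20399 genes in all. GARS and KARS, which each supply an enzyme to both compartments, were counted as cytosolic.

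The libraries came from MOLM13, an established human acute myeloid leukemia (AML) cell line. It carries an internal tandem duplication in FLT3 and a rearrangement of chromosomes 9 and 11 (bands p22 and q23). Cells received DMSO, the solvent control, or 1 μM ZW27941 for 24 h, with 3 libraries per condition. ZW27941 is a PROTAC, a molecule that binds the RNA methyltransferase METTL3 and recruits the VHL ubiquitin ligase so that the METTL3 protein is degraded. The comparison asks which transcripts differ after treatment. All cells share the line and its genotype, and no source used here says whether the replicates were separate cultures, so the p-values measure only the spread between these libraries, which may be technical.

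Cytosolic synthetases charge the transfer RNAs used by cytosolic ribosomes, and 8 of them sit with AIMP1 and AIMP2 in the multisynthetase complex. Mitochondria translate their own genome with a separate set of enzymes, nearly all encoded by other nuclear genes. When amino acids run short, uncharged transfer RNA activates the kinase EIF2AK4 (GCN2), the transcription factor ATF4 accumulates, and ATF4 binds response elements in the promoters of many cytosolic synthetase genes, while the mitochondrial set is mostly not regarded as its target.

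To show where such elements lie, the RefSeq promoters of the GRCh38.p14 build (250 bases before to 50 bases after each start) were searched on both strands for TGATGNAA. Members were matched through their current symbols (AARS1 for AARS, for example), and 32 of the 38 had a promoter entry. DARS, LARS, VARS, YARS, AARS2 and VARS2 had none. The element was present in 7 of 16 cytosolic promoters, 1 of 14 mitochondrial promoters and neither scaffold promoter, compared with 1217 of 27305 genes in the whole table (4.46%). The 8 windows of 30 bases are printed in the direction of transcription, with the matching bases in capitals, which read TTNCATCA where the match is on the opposite strand.
AARS (chr16:70289675-70289704, minus strand): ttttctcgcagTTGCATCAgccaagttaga
CARS (chr11:3057407-3057436, minus strand): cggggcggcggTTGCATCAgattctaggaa
GARS (chr7:30594834-30594863, plus strand): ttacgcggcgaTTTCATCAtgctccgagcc
IARS (chr9:92293692-92293721, minus strand): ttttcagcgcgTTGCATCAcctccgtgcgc
MARS (chr12:57488053-57488082, plus strand): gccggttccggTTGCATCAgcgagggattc
NARS (chr18:57621804-57621833, minus strand): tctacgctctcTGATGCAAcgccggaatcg
TARS (chr5:33440956-33440985, plus strand): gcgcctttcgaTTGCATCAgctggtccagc
YARS2 (chr12:32756076-32756105, minus strand): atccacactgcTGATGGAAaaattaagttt
The match began between positions −33 and 14 relative to the start site in 6 of the cytosolic genes, and at −187 in AARS and −197 in YARS2. All 7 cytosolic genes belong to the 12 cytosolic synthetases known as amino acid response targets, of which 10 had a promoter entry, whereas 0 of the 6 other cytosolic synthetases with an entry had a match. The list of targets and the search both concern elements that ATF4 binds, so the list and the matches are not independent. A match is a description of these letters and does not show that a factor was bound.

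The libraries held 143454176 to 178744976 counts on genes, and the member with the fewest, PARS2, had 710 to 876. TMM factors were 0.994 to 1.01. Reads aligned to several places were 3.75% to 4.07% of those tallied in DMSO and 3.63% to 5.25% with ZW27941, with replicate 3 the highest. The 8 AML markers were at 45.0 to 1196 CPM (counts scaled to a common library total) in every library, and the T cell, B cell and erythroid markers were each under 2 CPM, with HBB at 0 in all 6 libraries. Of the epithelial or stromal markers, EPCAM was at most 0.0166 CPM, COL1A1 was at 0.751 to 1.16 CPM, and KRT8 was under 8 CPM in every library. In the annotation, 22 of the members share exon bases with another gene, and the files list 16 pseudogenes of members, with which reads could be split. The summed AML markers were 2381 to 2456 CPM in DMSO and 2631 to 2697 CPM with ZW27941. Of the 8, 4 rose (PTPRC, SPI1, LYZ and MPO), beside 16.3% of all genes tested. LYZ changed most, from a mean of 963 CPM in DMSO to 1160 CPM with ZW27941. FLT3, MEIS1 and HOXA9 had slightly lower means and did not pass (log2 fold changes −0.022, −0.022 and −0.061). The part of the 8 markers in the results was not tested. METTL3 was at 120.2, 122 and 122 CPM in DMSO and 119, 121 and 128 CPM with ZW27941, with a log2 fold change of 0.013 ± 0.028 (SE, n = 3) and adjusted p = 0.765 (edgeR quasi-likelihood fit, Benjamini-Hochberg adjusted over every gene tested), and the sign turned with upper-quartile scaling. Since ZW27941 acts on METTL3 protein, this transcript does not check the labels.

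Cytosolic synthetase transcripts were lower with ZW27941, by small amounts. Of 20, 16 fell, HARS and SARS rose, and RARS and FARSA did not pass (adjusted p under 0.05, edgeR quasi-likelihood fit, Benjamini-Hochberg adjusted over every gene tested). Among all genes tested, 13.8% were lower and 16.3% were higher. The median log2 fold change of the 20 was −0.12, with a range of −0.34 to 0.11, and that of all genes was −0.0019. The groups of libraries did not overlap in 18 of the 20, compared with 41.6% of all genes. The level summed over the 20 was 3995 to 4075 CPM in DMSO and 3701 to 3750 CPM with ZW27941. These are shares of the counts in bulk RNA, where fewer cells of a type and less RNA per cell cannot be told apart.

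**Figure D1:**
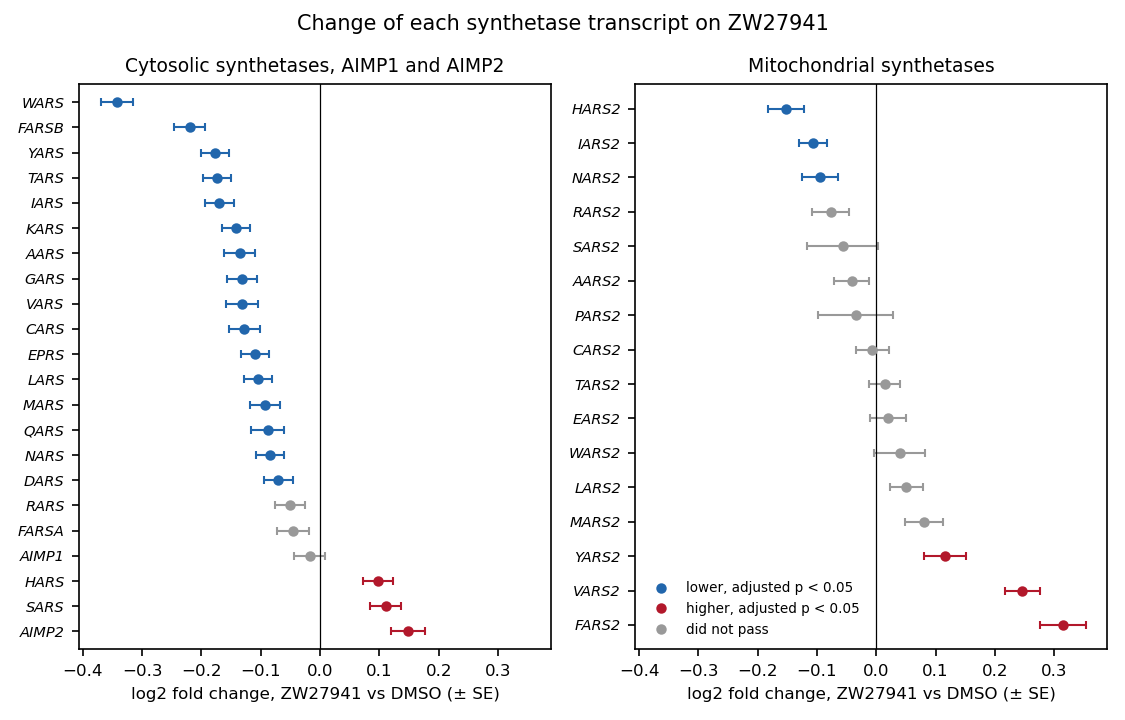
Log2 fold change of each member (ZW27941 over DMSO, x axis) with its standard error, n = 3 per group, with cytosolic synthetases and scaffolds on the left and mitochondrial synthetases on the right, coloured by whether the adjusted p was under 0.05. Cytosolic points run from −0.34 (WARS) to 0.11 (SARS) with most below 0, and mitochondrial points run from −0.15 (HARS2) to 0.31 (FARS2) on both sides of 0.

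WARS, which charges tryptophan, was at 167, 177 and 170.1 CPM in the DMSO libraries and at 132, 139.5 and 134 CPM in the ZW27941 libraries. It showed the steepest fall of the 38, with every ZW27941 library below every DMSO library and a log2 fold change of −0.34 ± 0.027 (SE, n = 3) (adjusted p = 6.02e-09, edgeR quasi-likelihood fit, Benjamini-Hochberg adjusted over every gene tested, as for every adjusted p of a single gene here). The gene lies at chr14:100333788-100376805 (GRCh38, GENCODE release 29, as for the other gene positions).

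FARSB (chr2:222570536-222656337) encodes the β subunit of the phenylalanine enzyme and was at 62.9, 61.3 and 62.3 CPM in the DMSO libraries and at 52.8, 53.2 and 54.0 CPM in the ZW27941 libraries. Its groups did not overlap, and it fell by 0.22 on the log2 scale (adjusted p = 1.74e-06). FARSA encodes the α subunit of the same enzyme and had a log2 fold change of −0.045 ± 0.027 (SE, n = 3), adjusted p = 0.225, with overlapping groups, although it passed without ZW27941 replicate 3 (−0.070, adjusted p = 0.0306). Whether the subunits' changes differ was not tested.

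YARS, the tyrosine enzyme, was at 172, 178 and 172 CPM in the DMSO libraries and at 153, 154 and 154 CPM in the ZW27941 libraries. TARS, for threonine, was at 318, 317 and 316 CPM in the DMSO libraries and at 279, 284 and 279.8 CPM in the ZW27941 libraries. IARS, for isoleucine and a member of the complex, was at 215, 213 and 211 CPM in the DMSO libraries and at 188, 193 and 187 CPM in the ZW27941 libraries. All ZW27941 libraries of these genes were below all DMSO libraries, and the log2 fold changes were −0.18, −0.17 and −0.17 (adjusted p = 8.82e-06, 7.11e-06 and 1.36e-05).

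KARS, the lysine enzyme of both compartments, was at 187, 190.2 and 189 CPM in the DMSO libraries and at 169.7, 172 and 172 CPM in the ZW27941 libraries. GARS, the glycine enzyme of both compartments, was at 123, 128 and 122 CPM in the DMSO libraries and at 112, 114 and 115 CPM in the ZW27941 libraries. Neither gene's groups overlapped, and both fell, by 0.14 and 0.13 on the log2 scale (adjusted p = 7.78e-05 and 0.000472).

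Among the other cytosolic genes that fell, AARS (alanine), VARS (valine), CARS (cysteine) and EPRS, which joins the glutamate and proline enzymes in 1 protein, had log2 fold changes of −0.14, −0.13, −0.13 and −0.11. LARS (leucine), MARS (methionine), QARS (glutamine), NARS (asparagine) and DARS (aspartate) followed at −0.10, −0.092, −0.089, −0.084 and −0.071. QARS was the only one of the 16 whose groups overlapped. RARS, for arginine, was lower in all 3 ZW27941 libraries but did not pass (−0.051 ± 0.026 (SE, n = 3), adjusted p = 0.146), and it passed with upper-quartile scaling (−0.074, adjusted p = 0.0321).

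HARS and SARS moved the other way. SARS, for serine, was at 92.4, 95.5 and 93.3 CPM in the DMSO libraries and at 99.0, 103 and 102 CPM in the ZW27941 libraries. Its groups did not overlap, and the log2 fold change was 0.11 ± 0.026 (SE, n = 3), adjusted p = 0.00223. HARS, for histidine, also rose (0.10).

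The calls of 4 cytosolic genes with small changes were lost when single libraries were left out, with the direction kept. Without DMSO replicate 1, NARS no longer passed (−0.073, adjusted p = 0.0583). Without DMSO replicate 2, MARS (−0.069, adjusted p = 0.0710) and QARS (−0.073, adjusted p = 0.111) did not. Without DMSO replicate 3, DARS (−0.050, adjusted p = 0.214) and QARS (−0.077, adjusted p = 0.101) did not. Leaving out ZW27941 replicate 1 ended the calls of DARS (−0.062, adjusted p = 0.113) and QARS (−0.071, adjusted p = 0.0925). Leaving out ZW27941 replicate 2 ended those of DARS (−0.078, adjusted p = 0.0653), NARS (−0.074, adjusted p = 0.0667) and QARS (−0.081, adjusted p = 0.0888). DARS also failed to pass with scaling by library size only (−0.060, adjusted p = 0.0651) and with no filter on low counts (−0.065, adjusted p = 0.0703).

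**Figure D2:**
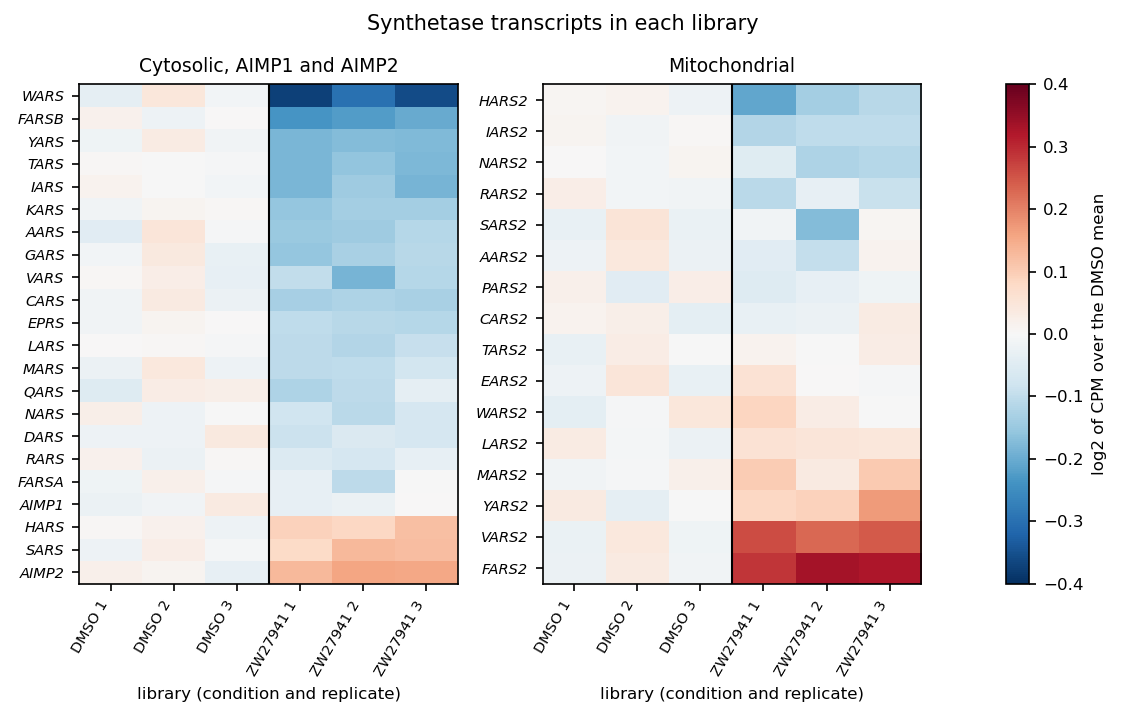
Each cell is the log2 of a member's CPM in 1 library over its DMSO mean, with libraries on the x axis (3 DMSO, then 3 ZW27941, parted by the black line) and genes on the y axis, ordered by fold change. Blue fills the ZW27941 columns for most cytosolic genes, whose library medians were −0.12 to −0.11, while the mitochondrial library medians were −0.012 to 0.010.

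Mitochondrial synthetases moved in both directions. Of 16, HARS2, IARS2 and NARS2 fell (18.8%, beside 13.8% of all genes), FARS2, VARS2 and YARS2 rose (18.8%, beside 16.3%), and 10 did not pass. These shares are near those of all genes. Their median log2 fold change was 0.0039, beside −0.0019 for all genes, and it was −0.020 with upper-quartile scaling, which moved the median of all genes to −0.025. The summed level was 736 to 744 CPM in DMSO and 724 to 736 CPM with ZW27941.

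FARS2 (chr6:5261044-5829192), the mitochondrial phenylalanine enzyme, was at 12.8, 13.3 and 12.9 CPM in the DMSO libraries and at 15.9, 16.4 and 16.3 CPM in the ZW27941 libraries. It showed the steepest rise of the 38, with no overlap between groups and a log2 fold change of 0.31 ± 0.038 (SE, n = 3) (adjusted p = 2.04e-06). RefSeq start sites of FARS2 lie 57 and 563 bases from that of LYRM4, which is transcribed away from FARS2.

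IARS2, for isoleucine, was at 233, 229 and 232 CPM in the DMSO libraries and at 213, 215 and 215 CPM in the ZW27941 libraries. It fell by 0.11 on the log2 scale with no overlap (adjusted p = 0.00132). NARS2, for asparagine, was at 32.7, 32.4 and 32.9 CPM in the DMSO libraries and at 31.5, 29.96 and 30.2 CPM in the ZW27941 libraries. Its groups did not overlap either, at a log2 fold change of −0.095 ± 0.030 (SE, n = 3) and adjusted p = 0.0213, but it no longer passed without DMSO replicate 1 (−0.093, adjusted p = 0.0540), DMSO replicate 3 (−0.089, adjusted p = 0.0715) or ZW27941 replicate 2 (−0.082, adjusted p = 0.0896).

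The 10 that did not pass ran from 0.081 (MARS2, adjusted p = 0.0645) to −0.077 (RARS2, adjusted p = 0.0703). MARS2 passed with scaling by library size only (0.091, adjusted p = 0.0395) and, as RARS2 did, without ZW27941 replicate 2 (0.10, adjusted p = 0.0438 for MARS2 and −0.10, adjusted p = 0.0442 for RARS2), and RARS2 also passed with upper-quartile scaling (−0.10, adjusted p = 0.0178). The groups of LARS2 did not overlap (0.050), and those of WARS2, EARS2, TARS2, CARS2, PARS2, AARS2 and SARS2 did, with log2 fold changes of 0.039, 0.019, 0.015, −0.0068, −0.035, −0.041 and −0.057. The sign of EARS2 and TARS2 turned with upper-quartile scaling and that of CARS2 with library size only. SARS2 shares 46.2% of its exon bases with AC011455.2 on the same strand, so its counts are uncertain.

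For 13 amino acids, 1 cytosolic member was paired with 1 mitochondrial member, and the log2 ratio of the mitochondrial to the cytosolic counts was taken within each library, where scaling has no part. TARSL2, a further threonine synthetase gene at 4.25 ± 0.182 CPM in DMSO (SD, n = 3), was counted with the partners in charging and not in the pairs. With ZW27941, this ratio lay above every DMSO library in 9 pairs and below every DMSO library in 2 (histidine and serine), and it overlapped in 2 (asparagine and arginine). Among all single genes tested, the groups did not overlap in 41.6%. No such share was taken for ratios of other pairs of genes, so these counts have no like background. The median change of the ratio over the 13 pairs was 0.12. In 11 pairs the two-sided exact permutation test gave p = 0.1, the smallest that 3 against 3 libraries allow, and the p-values adjusted over the 13 pairs were 0.118 to 0.7. So no pair could pass 0.05 in this test. Summed over the genes, mitochondrial counts were 18.3% to 18.5% of cytosolic counts in DMSO and 19.5% to 19.6% with ZW27941.

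**Figure D3:**
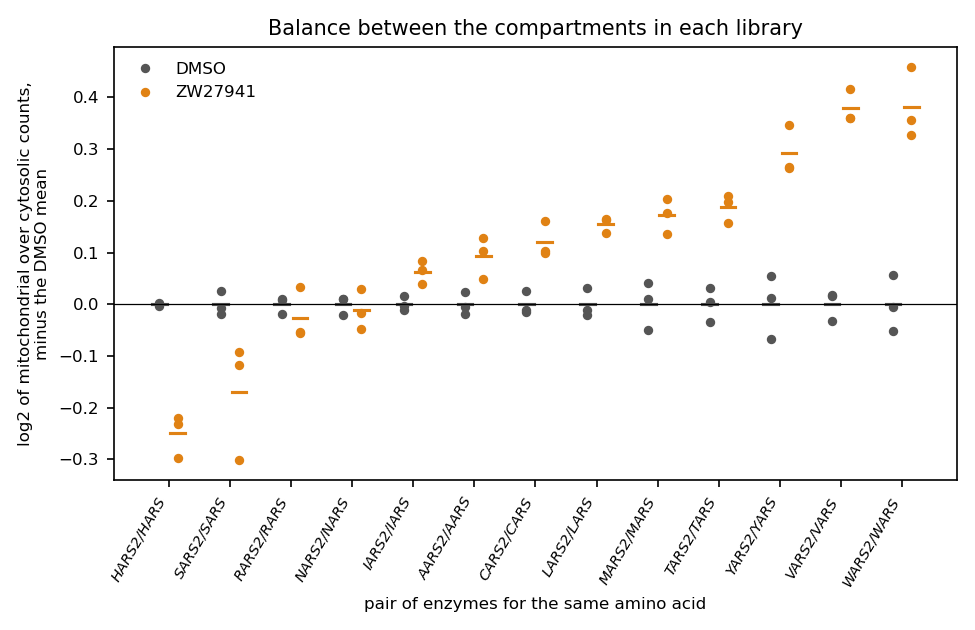
Log2 ratio of mitochondrial to cytosolic counts for each of 13 pairs (x axis), less the DMSO mean, in each DMSO (grey) and ZW27941 (orange) library, with dashes at the group means. The ZW27941 means run from −0.25 (histidine) to 0.38 (tryptophan). All ZW27941 points lie above all DMSO points in 9 pairs and below them in 2, with no share for other pairs of genes beside these counts.

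Partners in 3 pairs were called in opposite directions. The valine enzyme of the cytosol, VARS, was at 258, 262 and 251 CPM in the DMSO libraries and at 239.8, 226 and 237 CPM in the ZW27941 libraries and fell (log2 fold change −0.13, adjusted p = 0.000681). Its mitochondrial partner VARS2 was at 33.4, 35.1 and 33.7 CPM in the DMSO libraries and at 40.9, 40.0 and 40.4 CPM in the ZW27941 libraries and rose (log2 fold change 0.25, adjusted p = 1.74e-06). Neither gene's groups overlapped, and the log2 ratio within libraries, less the DMSO mean, was −0.033, 0.015 and 0.018 in DMSO and 0.36, 0.42 and 0.36 with ZW27941. VARS2 shares 22.0% of its exon bases with GTF2H4 on the same strand, and the part of those bases in its rise was not tested.

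For tyrosine, YARS fell as given above. YARS2 was at 20.6, 19.6 and 20.0 CPM in the DMSO libraries and at 21.3, 21.4 and 22.6 CPM in the ZW27941 libraries and rose without overlap (log2 fold change 0.12 ± 0.035 (SE, n = 3), adjusted p = 0.0150). It no longer passed without DMSO replicate 2 (0.10, adjusted p = 0.0743) or ZW27941 replicate 3 (0.085, adjusted p = 0.0894). The ratio, on the same scale, was 0.055, −0.066 and 0.012 in DMSO and 0.26, 0.27 and 0.35 with ZW27941, so every treated library was above every control.

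The histidine pair went the other way. HARS was at 68.8, 69.5 and 67.6 CPM in the DMSO libraries and at 73.1, 72.6 and 74.5 CPM in the ZW27941 libraries and rose (log2 fold change 0.10, adjusted p = 0.00586). HARS2 was at 43.3, 43.5 and 42.5 CPM in the DMSO libraries and at 37.4, 39.2 and 39.9 CPM in the ZW27941 libraries and fell (log2 fold change −0.15, adjusted p = 0.000555). Neither gene's groups overlapped, and the ratio was 0.0033, −0.0040 and 0.00070 in DMSO and −0.30, −0.22 and −0.23 with ZW27941. These genes lie head to head on chromosome 5, HARS at chr5:140673904-140691862 on the minus strand and HARS2 at chr5:140691426-140699318 on the plus strand, with RefSeq start sites 85 bases apart. They share 437 exon bases, 11.7% of those of HARS2 and 5.56% of those of HARS, on opposite strands, and reads from these bases cannot be told apart without strand.

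Levels between genes can be compared only per length, here as mean CPM per kilobase of merged exons in DMSO. FARSA was the highest of the 20 cytosolic genes at 99.9 ± 1.28 (SD, n = 3) and CARS the lowest at 6.74 ± 0.144, with a median of 32.3. FARSB, the partner subunit of FARSA, was at 18.5 ± 0.249. Among the 16 mitochondrial genes, IARS2 was the highest at 55.4 ± 0.507 and PARS2 the lowest at 2.15 ± 0.0596, with a median of 7.35. The cytosolic gene was the higher one in 11 of 13 pairs, with a median ratio of 4.04 and the largest ratio, 10.5, for valine. HARS and IARS were below their partners, at ratios of 0.758 and 0.519. With the length of the longest principal transcript, chosen after seeing the data, the count was again 11 of 13, but with other exceptions: the ratio was 1.64 for histidine, 0.691 for cysteine and 0.705 for isoleucine. The largest ratio was then 13.4, for serine, and that of valine was 7.12. Ranks within a compartment were taken with merged exons only. Those of CARS, the lowest cytosolic gene, sum to 10.0 kb, beside 2.69 kb for its longest principal transcript, so its rank depends on the length used.

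**Figure D4:**
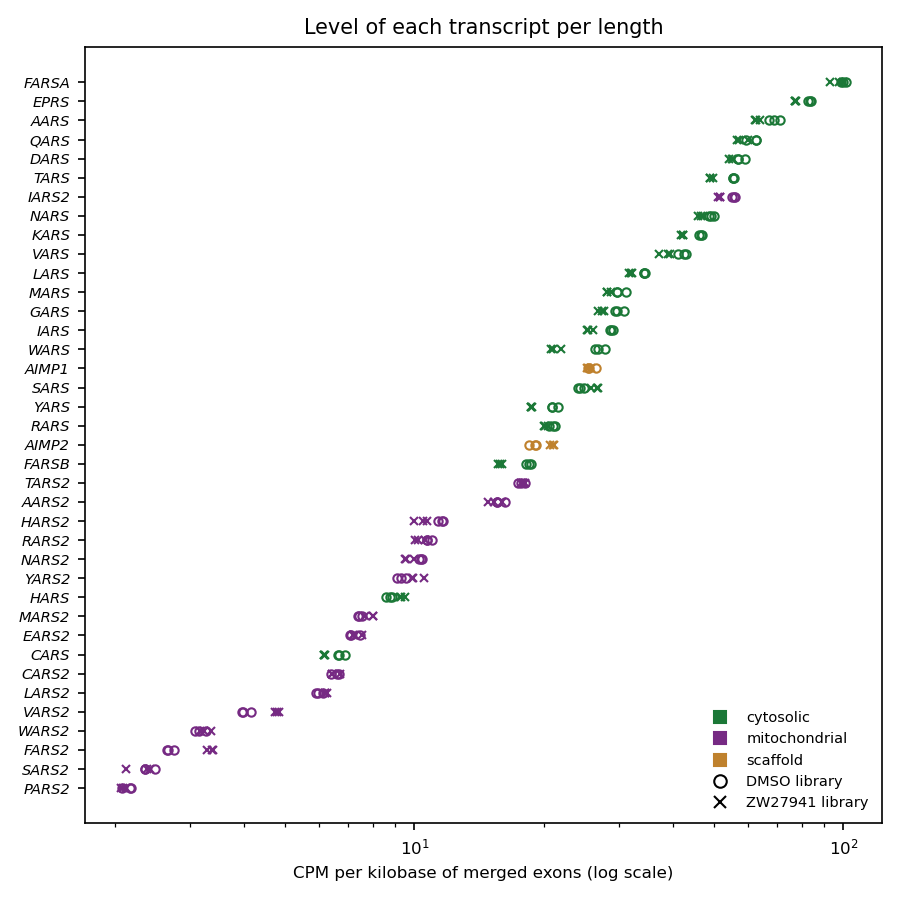
Level of each member per length (CPM per kilobase of merged exons, log scale) in the 3 DMSO libraries (circles) and 3 ZW27941 libraries (crosses), ordered by the DMSO mean. Cytosolic genes run from 6.74 (CARS) to 99.9 (FARSA) in DMSO, and all mitochondrial genes but IARS2 (55.4) lie below 20 of this unit.

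In the multisynthetase complex, 7 of 8 synthetases fell and RARS did not pass (median log2 fold change −0.098). Outside the complex, 9 of 12 fell and 2 rose (median −0.13). The 9 cytosolic class I enzymes, whose active site is a Rossmann fold, had 8 that fell (median −0.13), and the 10 cytosolic class II enzymes had 7 that fell and 2 that rose (median −0.11). EPRS, which holds a domain of each class, was left out of both. Of the mitochondrial enzymes, 1 of 9 in class I fell and 2 rose (median 0.039), and 2 of 7 in class II fell and 1 rose (median −0.041). That is 11.1% lower and 22.2% higher in class I, and 28.6% lower and 14.3% higher in class II. Of all genes tested, 13.8% were lower and 16.3% were higher. Differences between these subgroups were not tested.

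Of the scaffolds of the complex, AIMP2 was at 35.3, 35.1 and 34.0 CPM in the DMSO libraries and at 38.1, 38.9 and 38.7 CPM in the ZW27941 libraries. It rose without overlap (log2 fold change 0.15 ± 0.029 (SE, n = 3), adjusted p = 0.000479). It shares 28.9% of its exon bases with EIF2AK1 on the opposite strand, and EIF2AK1 also rose (0.092, adjusted p = 0.00568). AIMP1 was at 84.4, 85.1 and 88.0 CPM in the DMSO libraries and at 84.0, 84.5 and 85.9 CPM in the ZW27941 libraries, and its overlapping groups gave a log2 fold change of −0.017 ± 0.026 (SE, n = 3), adjusted p = 0.663, which turned to 0.0016 without DMSO replicate 3. EEF1E1, the other scaffold of the complex, did not pass (0.070 ± 0.070 (SE, n = 3), adjusted p = 0.497).

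Of the 12 cytosolic synthetases known as amino acid response targets, 11 fell and SARS rose (median log2 fold change −0.13). Of the 8 others, 5 fell, HARS rose and 2 did not pass (median −0.080). That is 91.7% and 62.5% lower, both above the 13.8% of all genes tested. The shares that rose were 8.33% and 12.5%, beside 16.3% of all genes. The 7 cytosolic genes with TGATGNAA in the windows printed above (AARS, CARS, GARS, IARS, MARS, NARS and TARS) all fell, between −0.17 and −0.084 (median −0.13). Of the 9 cytosolic genes whose promoters lacked these letters, 5 fell, 2 rose and 2 did not pass (median −0.089), and WARS, the gene with the steepest fall, was among them. YARS2, the 1 mitochondrial gene with a match, rose. Of all 16 cytosolic genes with a promoter entry, 12 fell. Differences between these subgroups, and any part of the element in the falls, were not tested.

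The amino acid response itself was described with 31 other genes. The list also holds EIF2AK1, EIF2AK2 and EIF2AK3, kinases related to EIF2AK4 that respond mainly to other stresses. Of the 31, 19 fell, 4 rose and 8 did not pass (median log2 fold change −0.16). That is 61.3% lower and 12.9% higher, beside 13.8% and 16.3% of all genes. ATF4, its transcription factor, was at 379, 389 and 388 CPM in the DMSO libraries and at 327, 337 and 344 CPM in the ZW27941 libraries, without overlap, and fell by 0.20 on the log2 scale (adjusted p = 3.80e-06). DDIT3 (CHOP), a factor induced under stress, fell most, from 30.6 ± 2.35 to 18.3 ± 0.746 CPM (SD, n = 3), a log2 fold change of −0.74. Its exons share 355 bases with those of MARS on the opposite strand, 5.05% of the MARS exons. TRIB3, a pseudokinase that restrains ATF4, PPP1R15A, a phosphatase subunit that restores translation, and ASNS, the asparagine synthetase, fell by 0.42, 0.42 and 0.37 on the log2 scale. Rises were seen for SLC7A11, the cystine transporter (0.18, groups overlapping), CEBPG, a partner of ATF4 (0.14), ALDH18A1 of proline synthesis (0.12) and EIF2AK1. The sensor EIF2AK4 did not pass (0.038 ± 0.032 (SE, n = 3), adjusted p = 0.404).

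Of 16 other genes of transfer RNA charging, among them genes that mature, export or correct transfer RNA, 6 fell, 3 rose and 7 did not pass (median log2 fold change −0.040). That is 37.5% lower and 18.8% higher, beside 13.8% and 16.3% of all genes, so the share that rose is near that of all genes. XPOT, which exports transfer RNA from the nucleus, was at 429.8, 436 and 440.2 CPM in the DMSO libraries and at 379.9, 378 and 368 CPM in the ZW27941 libraries and fell without overlap (−0.21, adjusted p = 9.42e-07). SSB (La), which protects the ends of new transfer RNA, fell by 0.16 on the log2 scale (adjusted p = 2.44e-05). DTD1, which clears D-amino acids from transfer RNA, and SEPSECS, which makes selenocysteine on it, were at −0.11 and −0.089 (adjusted p = 0.0230 and 0.0298). Both calls were lost without DMSO replicate 2 (DTD1 −0.091, adjusted p = 0.105, SEPSECS −0.090, adjusted p = 0.0672), without DMSO replicate 3 (DTD1 −0.11, adjusted p = 0.0543, SEPSECS −0.070, adjusted p = 0.147) and without ZW27941 replicate 2 (DTD1 −0.078, adjusted p = 0.140, SEPSECS −0.091, adjusted p = 0.0615). DTD1 also lost its call without ZW27941 replicate 1 (−0.089, adjusted p = 0.0990), and SEPSECS without ZW27941 replicate 3 (−0.081, adjusted p = 0.0665), with the replicate block (−0.088, adjusted p = 0.0528), with library size only (−0.078, adjusted p = 0.0591) and with no filter (−0.083, adjusted p = 0.0673).

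TRNT1, which adds the terminal CCA of transfer RNA, rose from 32.9 ± 1.00 to 35.9 ± 0.487 CPM (SD, n = 3), a log2 fold change of 0.13. ELAC1, a nuclease acting on transfer RNA ends, rose from 3.38 ± 0.176 to 4.15 ± 0.210 CPM (0.30), while the related gene ELAC2 did not pass (0.0037, adjusted p = 0.933). QRSL1, part of the complex that makes glutamine on mitochondrial transfer RNA, rose by 0.093 (adjusted p = 0.0181), a call lost with upper-quartile scaling (0.069, adjusted p = 0.0747) and without DMSO replicate 2 (0.072, adjusted p = 0.1004) or ZW27941 replicate 2 (0.091, adjusted p = 0.0528). The other genes of that complex did not follow: GATB fell (−0.099, adjusted p = 0.0310) and GATC did not pass (0.010, adjusted p = 0.834).

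**Figure D5:**
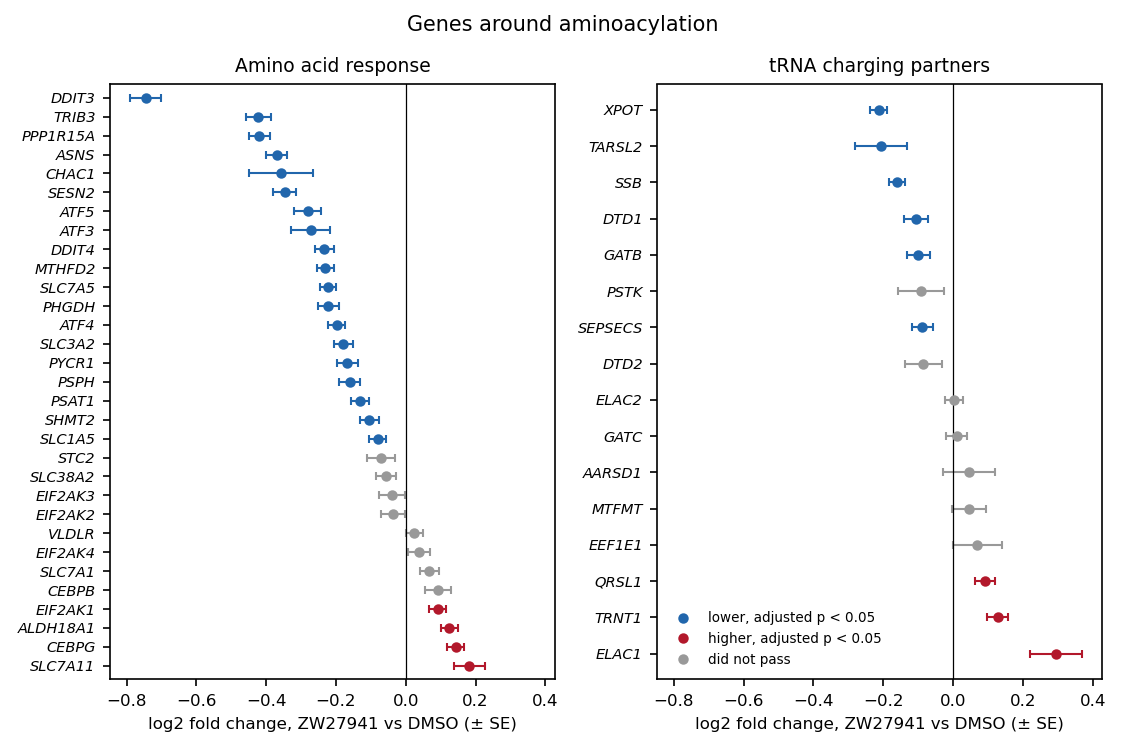
Log2 fold change (ZW27941 over DMSO, x axis) with its standard error, n = 3 per group, for 31 amino acid response genes on the left and 16 partners in transfer RNA charging on the right, coloured by whether the adjusted p was under 0.05. Amino acid response points run from −0.74 (DDIT3) to 0.18 (SLC7A11), and the partners from −0.21 (XPOT) to 0.30 (ELAC1).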

How the data were processed

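RNA from MOLM13 cells was sequenced by the study, and the deposited values are raw counts per gene symbol, made by the authors. The submitters' processing notes name HISAT2, SAMtools 1.19.2, HTSeq 2.0.3 and the hg38 build, without order. The annotation and strand setting are not given in the sources used here. The 5 tallies of reads on no gene, 37.4% to 39.8% of each library, were left out. Counts were fitted in R 4.3.3 with edgeR 4.0.16 (TMM, filterByExpr, quasi-likelihood test, 3 DMSO against 3 ZW27941 libraries) and adjusted by Benjamini-Hochberg over 20399 genes at 0.05. DESeq2 1.42.0 was an alternative. CPM used TMM factors. On simulated counts for this comparison, 190 of 200 genes changed by 0.3 (log2) were recovered, with 15 false calls among 20450 genes. The changed genes were drawn from those with a mean count above 200. Smaller changes, such as the cytosolic median of −0.12, were not simulated, so their recovery is not known. No libraries were duplicates (chi-square per degree of freedom 4.33 to 11.5).

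The members and lists were chosen with earlier results of these data known. Values in every library are given for the scaffolds, GARS, KARS, METTL3, up to 6 called members per compartment with the largest changes, and partners called in opposite directions. In each other list, up to 4 called genes per direction with the lowest p are named, with fold changes or means. ATF4, FARSA, SARS, EIF2AK4 and the remaining genes named outside this rule were chosen after their values were seen. Of the list of partners in transfer RNA charging, 1 gene is not reported here and was left out of its counts. Gene positions and exon overlaps came from GENCODE release 29, with Python 3.11.15 and pandas 2.3.3.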

Additional observations from a re-analysis of the deposited data

How the results depend on the processing

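Genes called numbered 6149, and 5731 to 6287 under other normalizations, tests, filters and thinning of every library to the smallest total. Cytosolic genes called lower numbered 15 to 17 under these, and 2 were called higher in each. With upper-quartile scaling the cytosolic median was −0.14, the mitochondrial median −0.020, EARS2 −0.0043, TARS2 −0.0089 and METTL3 −0.010. With library size only, CARS2 was at 0.0031. Counting GARS and KARS in both compartments gave 5 mitochondrial genes called lower and a median of −0.021. Upper-quartile scaling moved the median of all genes from −0.0019 to −0.025, by about as much as it moved these values, and GARS and KARS were both called lower.

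Leaving out 1 library at a time gave 4836 to 6134 genes called, 13 to 17 cytosolic genes lower, 2 to 3 mitochondrial genes lower and 2 to 4 higher. The cytosolic median ran from −0.12 to −0.11 and the mitochondrial median from −0.012 (without ZW27941 replicate 3) to 0.018 (without DMSO replicate 2). Near 0, CARS2 ran from −0.029 to 0.0057, EARS2 from −0.0017 to 0.045, AIMP1 from −0.030 to 0.0016 and METTL3 from −0.023 to 0.035. CARS2 was at 0.00046 without DMSO replicate 1, 0.0050 without ZW27941 replicate 1 and 0.00043 without ZW27941 replicate 2, and the mitochondrial median at −0.0076 without DMSO replicate 3.

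With the replicate number as a replicate block, 6010 genes were called, 16 cytosolic genes lower, and all 38 members kept their calls. Same-numbered libraries correlated at −0.026, −0.0015 and 0.088 in their deviations from the group means, so the numbers were not taken as pairs. The biological coefficient of variation between libraries was 3.11%. The reads tallied per library, 229503413 to 287628269, exceeded the raw reads per sample that the labels state, and the reason was not tested.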
